A study of Mus musculus with 12 samples.

Results

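The 41 genes described here encode extracellular matrix proteins, the integrins by which cells hold on to matrix, and proteins for collagen folding and crosslinking. They were taken by name from a list whose rule uses no measured value, but which was drawn up with earlier results of these data known, and all 41 were among the 42450 genes listed. PolyA+ RNA was measured in E14tg2a.4, a mouse embryonic stem cell line grown on gelatin with the cytokine LIF, after RNAi against *Srrm2*, a gene for a protein of nuclear speckles that takes part in splicing. The siRNA, at 50 nM, targeted either *Srrm2* (the Srrm2-KD libraries) or the firefly luciferase gene, which these cells lack (the Gl2-KD controls). Cells were collected after 24 h or 72 h, and those of 72 h were transfected with the same siRNA once more 24 h after the first time. Each of the 4 groups had 1 library in each of 3 experiments, which gives 12 libraries. All cells were of this 1 line and shared the serum-free medium, the siRNA dose and the transfection. The sources used here do not say which of the siRNAs against *Srrm2* went into which library.

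Basement membranes are thin sheets of matrix built on laminins, each a trimer of an α, a β and a γ chain, and on a network of collagen IV. Nidogens and the proteoglycans perlecan and agrin link these layers. Early embryonic cells rest on such a sheet, and integrins, each a pair of an α and a β subunit in the plasma membrane, bind laminin, fibronectin and other matrix proteins. Interstitial collagens of types I, III, V and VI are fibre-forming or fibre-associated proteins typical of mesenchymal cells, and all collagens need prolyl and lysyl hydroxylation and chaperones in the endoplasmic reticulum before secretion.

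The genes for the 2 chains of the common collagen IV trimer, *Col4a1* and *Col4a2*, lie head to head, so that 1 stretch of DNA serves as the start of both. Their windows from 250 bases before to 50 bases after the start site, as RefSeq gives them on GRCm38.p6, are shown because of the part they share. The 2 start sites are 21 bases apart on opposite strands, and the windows share 78 bases, from 11312777 to 11312854 of chromosome 8, printed in capitals and in reverse complement between the 2 lines.
*Col4a1* (chr8:11312777-11313076, - strand): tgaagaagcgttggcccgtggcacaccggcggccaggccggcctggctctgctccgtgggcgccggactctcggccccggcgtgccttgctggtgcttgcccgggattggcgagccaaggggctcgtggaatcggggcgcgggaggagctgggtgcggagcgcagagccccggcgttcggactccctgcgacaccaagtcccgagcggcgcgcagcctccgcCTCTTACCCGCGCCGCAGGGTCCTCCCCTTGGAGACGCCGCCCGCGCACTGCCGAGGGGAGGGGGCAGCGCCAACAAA
*Col4a2* (chr8:11312555-11312854, + strand): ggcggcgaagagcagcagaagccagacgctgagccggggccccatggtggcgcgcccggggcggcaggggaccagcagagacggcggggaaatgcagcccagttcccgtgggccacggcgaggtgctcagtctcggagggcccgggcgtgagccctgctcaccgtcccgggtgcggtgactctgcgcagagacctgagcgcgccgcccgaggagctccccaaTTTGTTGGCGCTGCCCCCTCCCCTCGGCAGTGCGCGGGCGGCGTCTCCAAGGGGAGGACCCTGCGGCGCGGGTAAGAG
The third window belongs to *Sned1*, the only member with an adjusted p below 0.05 in any of the 5 comparisons fitted with edgeR. Its capitals mark the 1 match to GGGCGG, the motif bound by Sp1, which here reads on the other strand.
*Sned1* (chr1:93235647-93235946, + strand): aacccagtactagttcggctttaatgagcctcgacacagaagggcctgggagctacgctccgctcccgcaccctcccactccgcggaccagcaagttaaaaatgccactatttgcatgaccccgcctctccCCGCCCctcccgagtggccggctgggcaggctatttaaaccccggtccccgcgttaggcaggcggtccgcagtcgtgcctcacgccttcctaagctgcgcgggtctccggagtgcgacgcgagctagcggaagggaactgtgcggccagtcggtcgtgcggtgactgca
RefSeq windows were found for 30 of the 41 members, 38 windows in all. GGGCGG, on either strand, was found in 73.7% of these and in 35.7% of 32851 windows of all genes. The members' windows had a median GC content of 61.8%, against 52.7% over all windows. CCAAT was found in 26.3% against 37.4%, and TATAAA in 13.2% against 13.6%, again on either strand. A CCAAT match read on the other strand can share bases with a GGGCGG match, and a match is a description of the sequence and not a binding site.

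The libraries held 73933196 to 153343831 estimated counts, and the members took 0.248% to 0.617% of them. *Srrm2* was lower in Srrm2-KD than in Gl2-KD in 3 of 3 experiments at each time, with a log2 fold change of -1.22 (SE 0.14) at 24 h and -1.16 (SE 0.14) at 72 h. Its adjusted p of 0.0663 at 24 h and 0.0991 at 72 h (edgeR quasi-likelihood test) missed the threshold of 0.05, and the groups overlapped, since *Srrm2* was about as high in the experiment 1 knockdown at 72 h (461 CPM, counts per 1000000 of the TMM-scaled library total) as in the experiment 3 control (442 CPM). In the study, edgeR with the RNA processing day as covariate called *Srrm2* lower at both times, and qRT-PCR showed its depletion. All 10 pluripotency markers passed the filter on low counts, and *Pou5f1* stood at 1149 to 1956 CPM. Of 12 markers of primitive and parietal endoderm, cells that lay down much basement membrane, 10 passed the filter and their sum was 3.00 to 6.36 CPM, with *Afp* and *Ttr* under 0.1 CPM in every library. Markers of mesenchyme and fibroblasts summed to 7.85 to 36.9 CPM, with *Twist2*, *Dcn* and *Lum* under 0.1 CPM in every library. Trophectoderm markers summed to 6.20 to 29.5 CPM. For endothelium the sum was 50.3 to 94.1 CPM, mostly from *Pecam1*, with *Cdh5* and *Emcn* under 0.1 CPM in every library. In these bulk libraries, fewer cells that express a gene cannot be told apart from less RNA per cell.

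Transcripts of fibronectin and of several laminin chains were well above those of the interstitial collagens in these cells. Per kilobase of the longest protein-coding transcript, which is the scale used to compare genes with each other, *Spp1* (osteopontin, a secreted glycoprotein that binds integrins) had the highest mean level at 279 CPM per kb over the 12 libraries. *P4hb*, the protein disulphide isomerase that is also a subunit of prolyl 4-hydroxylase, followed at 148 CPM per kb and *Fn1* (fibronectin) at 99.2. Next came *Col18a1* (collagen XVIII) at 54.2, *Nid2* at 50.7 and *Sparc*, a collagen-binding glycoprotein, at 47.3 CPM per kb. This order depends on the experiment: *Nid2* was above *Col18a1* in experiment 1 in all 4 conditions and below it in experiments 2 and 3, and *Fn1* was above *P4hb* in experiment 1 in 3 of 4 conditions and below it in the others. *Spp1* shares 18.8% of its exon bases with a predicted gene on the same strand, so that its level may hold reads of both.

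**Figure D1:**
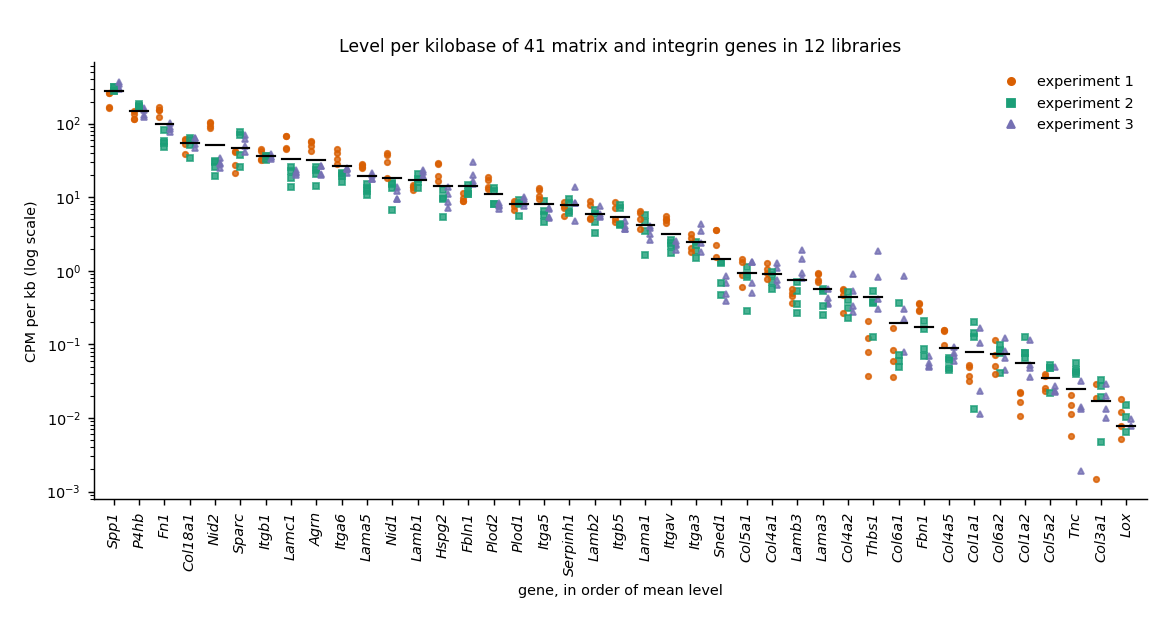
Level of the 41 members in CPM per kilobase of transcript (log axis), in order of the mean. Each point is 1 of 12 libraries, with colour and shape for the experiment, and the bar is the mean; values of 0 (*Col3a1* in 1 library and *Lox* in 3) are not drawn. Levels run from 279 CPM per kb for *Spp1* down to under 0.1 for *Col4a5*, *Col1a1*, *Col1a2*, *Col3a1*, *Col5a2*, *Col6a2*, *Tnc* and *Lox*.

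Among the laminin chains, *Lamc1* (γ1) had a mean of 33.0 CPM per kb, *Lama5* (α5) 19.6 and *Lamb1* (β1) 17.3. *Lamb2* stood at 5.99 and *Lama1* at 4.21, while the chains *Lamb3* (0.74) and *Lama3* (0.56), which in epithelia join in laminin-332, were low. *Itgb1*, the β subunit shared by most matrix integrins, was the highest integrin at 36.1 CPM per kb, followed by the laminin-binding *Itga6* at 26.7. *Itga5*, which binds fibronectin, had a range of 4.68 to 13.2. The means were 5.44 for *Itgb5*, 3.16 for *Itgav* and 2.49 CPM per kb for *Itga3*. The ranges of *Itgb1* (31.8 to 45.5) and *Itga6* (15.9 to 45.0) overlapped over the 12 libraries, and *Itga6* was highest in experiment 1 in all 4 conditions. Within libraries *Itgb1* was the higher per kilobase, except in the experiment 1 control at 72 h. The collagen IV chains were low, with means of 0.91 for *Col4a1* and 0.45 for *Col4a2*. The 7 genes of interstitial collagens had 0.02 (*Col3a1*) to 0.93 CPM per kb (*Col5a1*). The lysyl oxidase *Lox*, which crosslinks collagen, was the 1 member that failed the filter, with 0 to 14.0 estimated counts in a library.

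Experiment 1 stood apart from the others for many members. Of the 40 members that passed the filter, 16 were highest in experiment 1 in all 4 conditions and 5 were lowest there, against 23.2% and 20.2% of all 19410 genes. For *Nid2* (nidogen 2), the control libraries at 24 h had 498, 145 and 164 CPM in experiments 1, 2 and 3, and those at 72 h had 449, 152 and 140. In Srrm2-KD it had 509, 126 and 144 CPM at 24 h and 421, 94.97 and 122 at 72 h, so that experiment 1 was above the other two throughout, by 3.08 to 3.88 times their mean. *Sned1* showed ratios of 3.34 to 3.88, *Lamc1* of 2.25 to 3.03, *Nid1* of 2.15 to 3.31 and *Agrn* of 1.89 to 2.87. *Fn1* had ratios of 1.67 to 2.56. In the opposite direction, *Thbs1*, *Col1a2*, *Sparc*, *Spp1* and *Lamb1* were lowest in experiment 1 in each condition, *Sparc* at 0.56 to 0.69 times the mean of the others. The targeted gene went the same way as the first set, with 911, 496 and 449 CPM in Gl2-KD at 24 h. These values are a description, with no test. Each comparison that follows was fitted with the experiment as a block, which stands in for the authors' processing-day covariate.

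**Figure D2:**
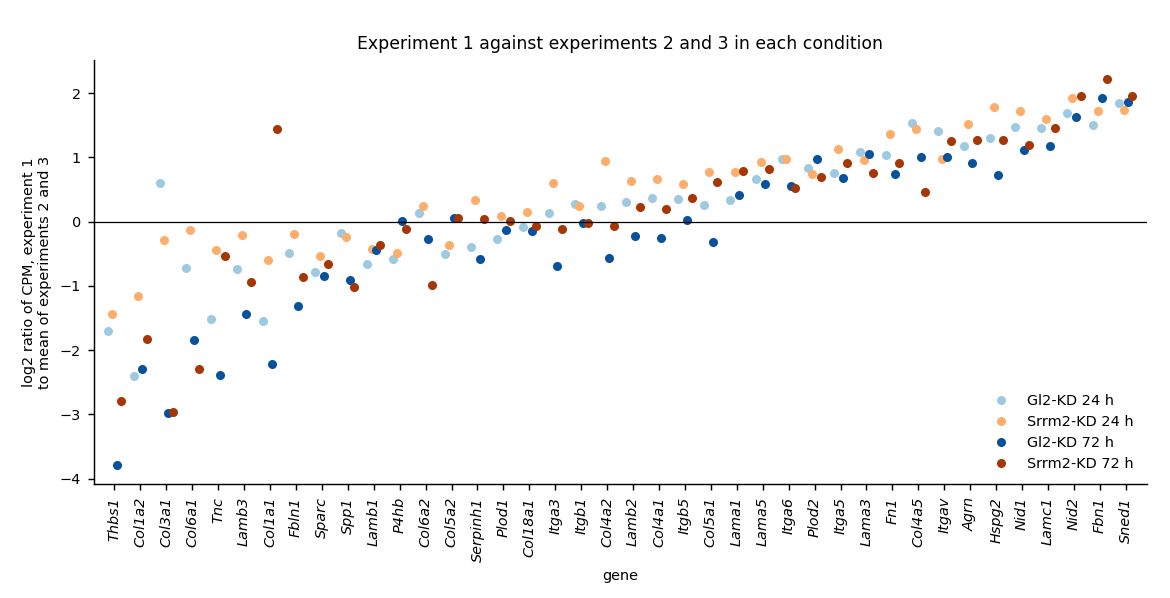
Log2 ratio of the CPM of experiment 1 to the mean CPM of experiments 2 and 3 (0.01 CPM added to each), for the 40 members that passed the filter, in each of the 4 conditions. Points above 0 are higher in experiment 1. *Sned1*, *Fbn1*, *Nid2* and *Lamc1* lie over 1 in every condition, and *Thbs1* and *Col1a2* lie under -1.

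Whether 24 h of *Srrm2* siRNA changed the matrix genes was asked first, and no member was called. None of the 40 had an adjusted p below 0.05 (edgeR quasi-likelihood test), against 0.0% of all genes, and none had an unadjusted p below 0.05, against 2.62%. Of the 40, 28 had a log2 fold change below 0, against 48.7% of all genes, and their median was -0.09 against 0.01 over all genes. Among the 1307 genes at least as long and as rich in GC as the lower quartiles of the members, 64.7% were below 0, with a median of -0.05. An unadjusted p below 0.05 was reached by 1.47% of all genes with lower and 1.15% with higher values. The median ran from -0.20 without the experiment 1 knockdown library to 0.01 without that of experiment 3, and was -0.15 and -0.17 without the controls of experiments 1 and 3 and -0.16 without the knockdown of experiment 2. The smallest p values belonged to *Col4a1*, *Itga5*, *Itga3*, *Col5a1* and *Lama5*.

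*Col4a1*, the α1 chain of collagen IV, had 8.34, 5.81 and 7.17 CPM in the controls and 7.03, 4.65 and 4.21 in the knockdown at 24 h. The knockdown library was the lower one in each experiment, but the groups overlapped, and the log2 fold change was -0.42 (SE 0.20, adjusted p of 1). The integrin subunits *Itga5* and *Itga3* were also lower in 3 of 3 experiments. *Itga5* had 57.8, 38.5 and 30.1 CPM in the control and 55.8, 28.1 and 23.2 in the knockdown, a log2 fold change of -0.29 (SE 0.15, adjusted p of 1). For *Itga3*, the α subunit of a laminin receptor, the levels were 15.6, 11.8 and 16.7 against 13.5, 9.03 and 8.69 CPM, with -0.47 (SE 0.24, adjusted p of 1). *Col5a1* stood at 12.2, 9.40 and 11.1 CPM in the controls and at 11.1, 7.30 and 5.66 in the knockdown, with -0.45 (SE 0.26, adjusted p of 1). Experiment 3 gave the lowest of the 3 ratios for *Col4a1*, *Itga3* and *Col5a1*. *Lama5* had 317, 174 and 229 CPM against 323, 138 and 200, lower in 2 of 3 experiments, with -0.17 (SE 0.10, adjusted p of 1).

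At 72 h most members stood lower in Srrm2-KD, and again none passed the adjusted threshold. No gene of the whole table did (0.0% of 19410). The study's edgeR fit, with the processing-day covariate, did call genes at this time, among them *Srrm2*. Of the 40 members, 32 had a log2 fold change below 0, against 52.1% of all genes, and the median was -0.33 against -0.02. An unadjusted p below 0.05 was reached by 17 members, 16 lower and 1 higher, against 7.86% and 5.01% of all genes, 12.9% in both directions. In all 3 experiments the knockdown was the lower library for 24 members, against 23.1% of all genes. For *Col5a1*, *Col18a1*, *Col4a1*, *Col4a2* and *Plod1* the 3 knockdown libraries all lay below the 3 controls, a pattern that 3.67% of all genes showed. The summed level of the members was 4936, 3428 and 4043 CPM in the controls and 4337, 2653 and 3434 in the knockdown, lower in each experiment.

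The members are long and GC-rich, and such genes were lower in the 72 h knockdown as a class. Their median transcript length was 5706.5 bases against 2698 over all genes, and their median GC content 54.2% against 49.8%. The 1307 genes at or above the members' lower quartiles of both (4257.5 bases and 52.1% GC) had a median of -0.16 at 72 h, with 73.3% of them below 0. With GC content and length fitted for each library, an alternative added after the data were seen, the members' median was -0.17, with 30 of 40 below 0. The knockdown libraries of experiments 2 and 3 at 72 h were among the 3 shallowest, with 81046515 and 73933196 counts, the other being the experiment 1 control at 24 h with 80944236. Without the experiment 3 control library at 72 h, the median was -0.19. The part of these features in the result of each gene was not tested beyond this.

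**Figure D3:**
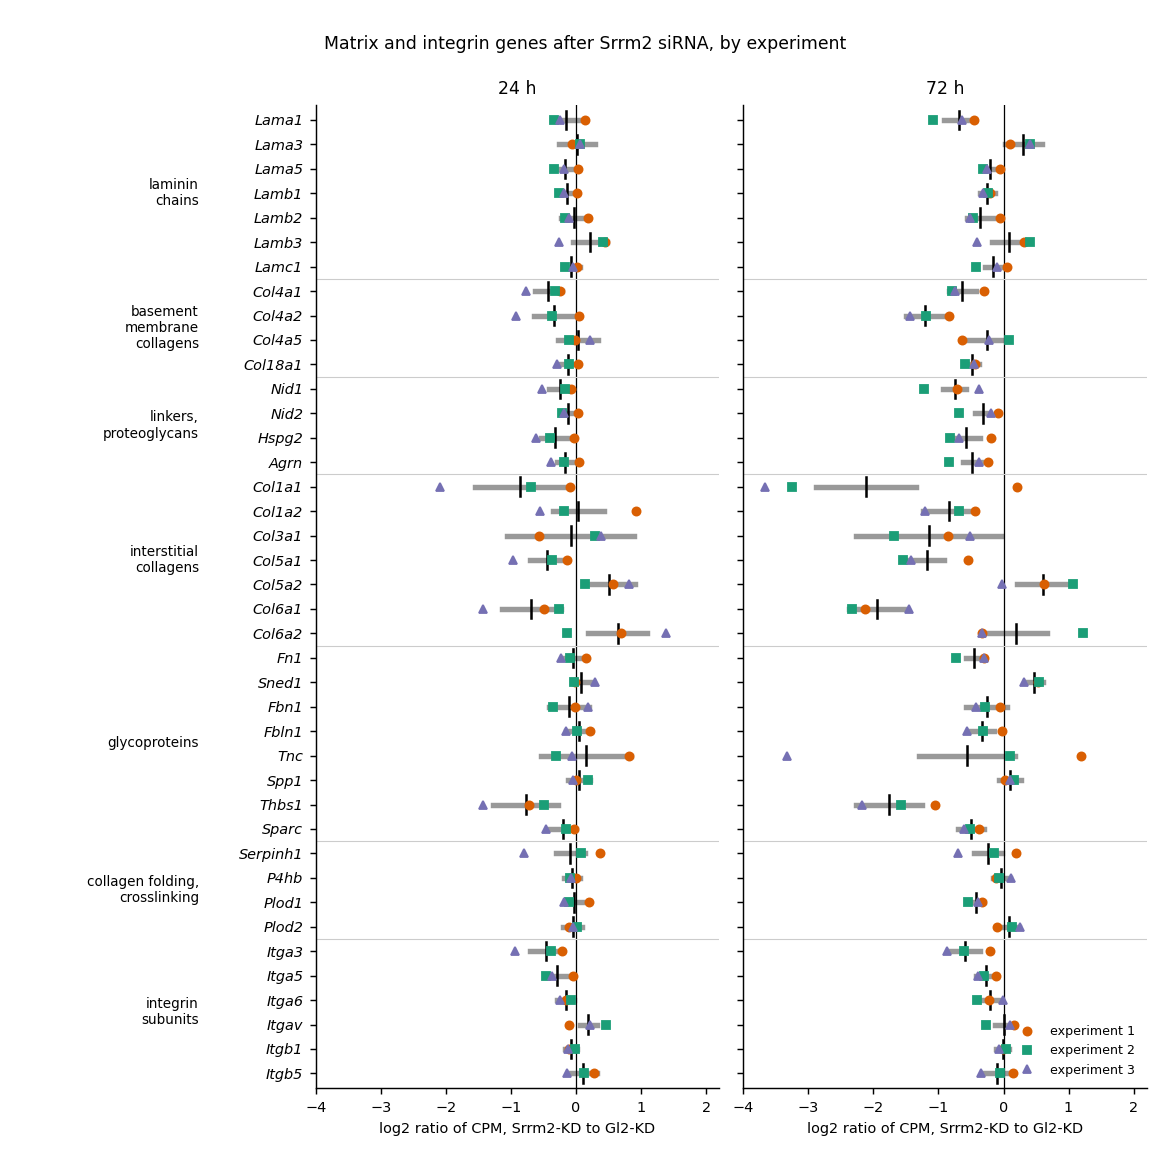
Log2 ratio of CPM, Srrm2-KD to Gl2-KD, for each of the 40 tested members by role, with 24 h in the left panel and 72 h in the right one. Points are the 3 experiments (0.01 CPM added), the black tick is the fitted log2 fold change and the grey bar its SE. At 24 h the points lie on both sides of 0, and at 72 h 32 of 40 fitted values lie below it.

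The 4 basement membrane collagens had a median log2 fold change of -0.56 at 72 h, and 3 of the 4 had an unadjusted p below 0.05. *Col4a2* had 3.06, 3.35 and 5.76 CPM in the controls and 1.70, 1.46 and 2.11 in the knockdown. The groups did not overlap, with a log2 fold change of -1.20 (SE 0.30, adjusted p = 0.159), and -0.89 without the experiment 3 control, its highest library. *Col4a1*, its partner at the shared start region printed above, had 6.25, 6.47 and 8.45 CPM against 5.04, 3.75 and 5.02. These did not overlap either, and the log2 fold change was -0.63 (SE 0.21, adjusted p = 0.254). *Col18a1*, whose cleaved end is endostatin, was the abundant collagen of these cells and had 292, 289 and 357 CPM against 216, 192 and 261. Every knockdown library was below every control, by -0.49 (SE 0.12, adjusted p = 0.155), but this value moved to -0.18 (adjusted p = 0.357) with GC content and length fitted. *Col4a5*, on the X chromosome, was at 0.40 to 1.00 CPM in the 72 h controls and 0.42 to 0.64 in the knockdown.

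All 4 linkers and proteoglycans were lower in 3 of 3 experiments at 72 h, each with an unadjusted p below 0.05, and their median was -0.53. *Nid1* (nidogen 1) had 182, 94.8 and 74.6 CPM in the controls and 112, 40.8 and 57.4 in the knockdown. Experiment 1 was high in both, so the groups overlapped, while the ratio within experiments gave a log2 fold change of -0.75 (SE 0.18, adjusted p = 0.153). *Agrn* (agrin) stood at 358, 187 and 193 CPM against 305, 105 and 148, with -0.48 (SE 0.13, adjusted p = 0.19). *Hspg2* (perlecan) had -0.58 (SE 0.23, adjusted p = 0.318) and *Nid2* -0.32 (SE 0.11, adjusted p = 0.279). For all 4, experiment 2 had the largest drop. Endoderm markers, from cells that make much of this matrix in the embryo, summed to 5.21, 3.55 and 3.84 CPM in the 72 h controls. In the knockdown the sums were 5.08, 4.79 and 3.00 CPM, and *Sox17* was at most at 0.10 CPM in each library. Of the 10 endoderm markers tested, 6 had a log2 fold change above 0 at 72 h and 4 below, with a median of 0.28. The part of these markers in the values of the linkers and proteoglycans was not tested.

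Of the 7 laminin chains, 1 had an unadjusted p below 0.05 and the median was -0.21. This was *Lama1*, the α1 chain of the embryonic laminin-111, with 47.8, 33.0 and 38.9 CPM in the controls and 35.1, 15.6 and 25.1 in the knockdown at 72 h. The experiment 1 knockdown lay among the controls, and the log2 fold change was -0.69 (SE 0.22, adjusted p = 0.244). *Lamb1* (-0.25, SE 0.12) and *Lama5* (-0.21, SE 0.10) were lower in 3 of 3 experiments by smaller amounts. *Lamc1*, the γ1 chain of most laminins, had -0.15 (SE 0.13). Within the trimer of α1, β1 and γ1 the α1 chain thus had the lowest fold change and γ1 the one nearest 0, and the difference between chains was not tested.

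Among the 7 interstitial collagens the spread was widest, with a median of -1.15 at levels mostly under 2 CPM. Values above 0 were found for 2 of the 7, with *Col5a2* highest at 0.61. It had 0.15, 0.15 and 0.15 CPM in the controls and 0.24, 0.32 and 0.15 in the knockdown at 72 h. *Col5a1*, which starts the assembly of collagen fibrils, had the smallest p of all members. Its levels were 7.28, 6.90 and 11.2 CPM in the controls and 5.01, 2.36 and 4.17 in the knockdown at 72 h. The groups did not overlap, with -1.18 (SE 0.27, adjusted p = 0.144), or 0.44 times the control. *Col6a1*, a chain of the beaded-filament collagen VI, had 0.69, 1.502 and 3.46 CPM against 0.15, 0.29 and 1.25. It was lower within each experiment by -1.94 (SE 0.44, adjusted p = 0.144), although the experiment 3 knockdown exceeded the experiment 1 control. *Col6a2*, its neighbour chain, was at most at 0.46 CPM at 72 h and had a log2 fold change of 0.20 (SE 0.46). *Col1a1* had 0.19, 0.84 and 0.98 CPM against 0.22, 0.08 and 0.07, which rests on experiments 2 and 3 (-2.11, SE 0.77, adjusted p = 0.292).

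Of 8 matrix glycoproteins, 3 had an unadjusted p below 0.05 with lower and 1 with higher values at 72 h. *Fn1*, the chief ligand of integrin α5β1, had 1275, 672 and 860 CPM in the controls and 1034, 405 and 695 in the knockdown. The experiment 1 libraries were the highest of each group and the groups overlapped, with a log2 fold change of -0.45 (SE 0.13, adjusted p = 0.203). *Thbs1* (thrombospondin 1) had 0.46, 2.18 and 10.9 CPM against 0.22, 0.73 and 2.41, or -1.76 (SE 0.51, adjusted p = 0.207). The control library of experiment 3 that was highest for *Thbs1* and *Col6a1* also had the highest *Acta2* (9.57 CPM), a mesenchyme marker, and that list summed to 8.34 to 36.9 CPM in the controls and 7.85 to 29.4 in the knockdown at 72 h. The markers of that list did not move together. *Thy1*, the largest part of the sum, had 22.9 CPM in that control and 22.8 in the knockdown of the same experiment, *Pdgfrb* was higher in the knockdown in 3 of 3 experiments (0.49, SE 0.25), and *Snai2* stood low in that control at 0.36 CPM. The part of these markers in the members' values was not tested. *Sparc* gave -0.50 (SE 0.20, adjusted p = 0.333). *Sned1*, a matrix glycoprotein with sushi, nidogen and EGF-like domains, went the other way, with 14.3, 4.31 and 3.53 CPM against 20.7, 6.27 and 4.41 and a log2 fold change of 0.46 (SE 0.14, adjusted p = 0.221), higher in 3 of 3 experiments.

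The integrins and the folding enzymes had the medians nearest 0, -0.16 and -0.14. Of the 6 integrin subunits, *Itga3* alone had an unadjusted p below 0.05 at 72 h, with 10.04, 11.03 and 21.3 CPM against 8.71, 7.27 and 11.6 and -0.60 (SE 0.24, adjusted p = 0.335). *Itgb1* had 125, 121 and 134 CPM in the controls and 124, 125 and 127 CPM in the knockdown, so that the groups overlapped. Of the folding and crosslinking genes, *Plod1*, a lysyl hydroxylase, had 26.9, 26.1 and 32.8 against 21.5, 17.9 and 24.9 CPM. Its groups did not overlap and gave -0.42 (SE 0.12, adjusted p = 0.211). *P4hb* had 422, 489 and 353 CPM against 390, 465 and 380, and *Spp1* among the glycoproteins 249.5, 419 and 516 against 252, 471 and 551, with log2 fold changes of -0.03 (SE 0.13) and 0.10 (SE 0.17).

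**Figure D4:**
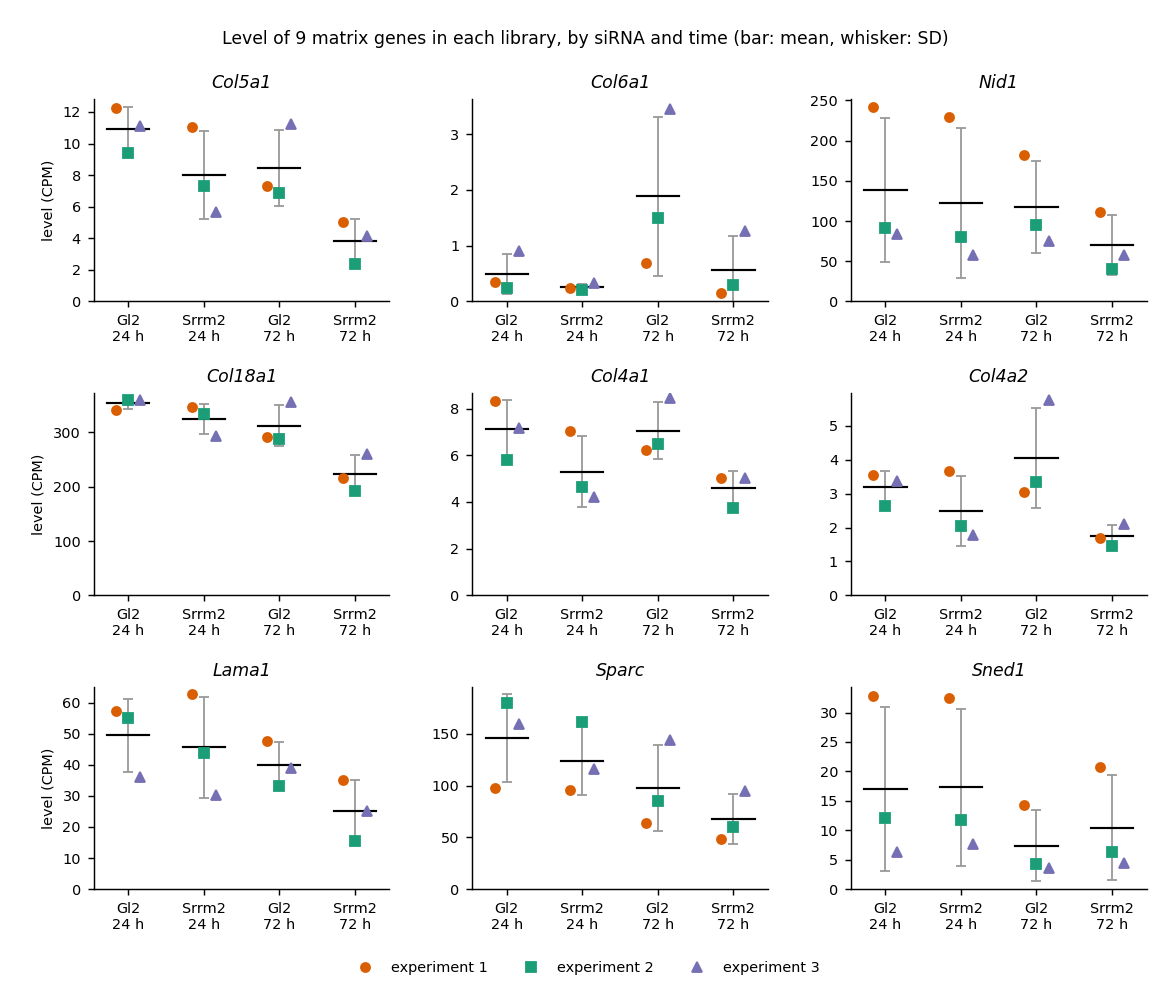
Level in CPM of 9 members in each library, from 0, by siRNA and time, with the mean (bar) and SD (whisker) of 3 experiments. *Col5a1*, *Col18a1*, *Col4a1* and *Col4a2* have their 3 Srrm2-KD libraries at 72 h below all 3 Gl2-KD libraries; *Nid1*, *Lama1* and *Sned1* are spread by experiment 1, and *Col6a1* by experiment 3.

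Other tools and fits called members at 72 h. DESeq2 called 8, against 2.79% of all genes: *Col5a1*, *Col6a1*, *Col4a2*, *Nid1*, *Thbs1*, *Col18a1* and *Agrn* lower and *Sned1* higher. A block for each experiment at each time called 12 members (3.73% of all genes), and the 72 h libraries fitted alone called 8 (1.78%). The latter with GC content and length fitted called *Sparc*, *Lama1*, *Col6a1* and *Thbs1*, all lower, against 1.06% of all genes. With limma-voom, where 0.0206% of all genes were called, no member was.

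Whether the knockdown effect was larger at 72 h than at 24 h was tested as an interaction, and no member was called (0.0% of all genes). Of the 40 members, 32 had a more negative value at 72 h, against 54.1% of all genes, with a median difference of -0.24 against -0.02. The 1307 long and GC-rich genes had a median difference of -0.11, with 71.5% below 0, and with GC content and length fitted the members' median was -0.13. With 1 library left out the median ran from -0.41 without the 24 h knockdown of experiment 3 to -0.06 without the 72 h control of experiment 3, with -0.38 without the 72 h control of experiment 1 and -0.15 without the 24 h knockdown of experiment 1. *Plod1* (-0.39, SE 0.17), *Fn1* (-0.40, SE 0.18) and *Col18a1* (-0.37, SE 0.17) had an unadjusted p below 0.05, as did 0.979% of all genes in that direction and 1.64% in either, and the adjusted p was 1 for each. *Col4a2* had -0.86 (SE 0.42) and *Nid1* -0.51 (SE 0.25). So no difference between the times was detectable for a single member.

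Between 24 h and 72 h, 1 member passed the threshold. The 72 h cells had also been transfected a second time, so that time in culture and the second transfection cannot be told apart. In Gl2-KD, *Sned1* had 32.8, 12.01 and 6.27 CPM at 24 h and 14.3, 4.31 and 3.53 at 72 h. It fell in each experiment, with experiment 1 highest throughout, by a log2 fold change of -1.17 (SE 0.14, adjusted p = 0.0112). In Srrm2-KD it had 32.5, 11.7 and 7.71 CPM at 24 h and 20.7, 6.27 and 4.41 at 72 h, and fell by 0.79 on the log2 scale (SE 0.14, adjusted p = 0.0467). Of all genes, 1.45% were called with time in Gl2-KD and 0.551% in Srrm2-KD. The difference between these falls was the interaction, 0.39 (SE 0.19, adjusted p of 1). The call in Gl2-KD was lost without the 24 h library of experiment 1 (adjusted p = 0.0597), the 24 h library of experiment 2 (0.0713) or the 72 h library of experiment 2 (0.0954), and without all of experiment 2 (0.501). That in Srrm2-KD was lost in 11 of 12 fits with 1 library left out, at an adjusted p of up to 0.274, and kept (0.0447) without the experiment 3 control at 72 h. Without the block both were lost, with an adjusted p of 1. *Sned1* shares 19.5% of its exon bases with *Mterf4* on the opposite strand, and the sources used here do not say whether counting used strand.

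For the other members no change with time passed the threshold, and the values of those with the smallest p follow. *Col6a1* in Gl2-KD had 0.34, 0.24 and 0.90 CPM at 24 h and the 0.69, 1.502 and 3.46 given above at 72 h, a log2 fold change of 1.88 (SE 0.44, adjusted p = 0.0625). DESeq2, limma-voom, glmQLFit with legacy=FALSE and the fits with no or a stricter filter called it. In Srrm2-KD the levels of *Col6a1* were 0.24, 0.20 and 0.33 CPM at 24 h and 0.15, 0.29 and 1.25 CPM at 72 h. *Sparc* had 98.1, 180.0 and 159.5 CPM at 24 h and 63.6, 85.1 and 144 at 72 h in Gl2-KD (-0.61, SE 0.20, adjusted p = 0.159). In Srrm2-KD it had 95.5, 161 and 116 CPM and then 48.9, 59.8 and 94.5. The latter did not overlap and gave -0.91 (SE 0.20, adjusted p = 0.0825). *Col18a1* in Srrm2-KD had 346, 334 and 293 CPM at 24 h, all above the 216, 192 and 261 at 72 h, with -0.55 (SE 0.12, adjusted p = 0.0728). DESeq2, limma-voom, glmQLFit with legacy=FALSE, the fit with no filter and that with GC content and length called it. In Srrm2-KD, *Sparc* was called with DESeq2 and with no filter, and *Col5a1*, *Lama1*, *Nid1* and *Lamc1* with DESeq2. In Gl2-KD, DESeq2 called *Sparc* and *Lamb3*, and the fit with GC content and length called *Lamc1*. DESeq2 called 6.89% of all genes with time in Gl2-KD and 5.47% in Srrm2-KD.

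*Col5a1* in Srrm2-KD had 11.1, 7.30 and 5.66 CPM at 24 h against 5.01, 2.36 and 4.17 at 72 h, without overlap (-1.09, SE 0.27, adjusted p = 0.0972). In Gl2-KD the log2 fold change was -0.36 (SE 0.26, adjusted p = 0.543). *Lama1* gave -0.84 (SE 0.22, adjusted p = 0.11) in Srrm2-KD and -0.31 (SE 0.22, adjusted p = 0.526) in Gl2-KD. The comparisons over time in Srrm2-KD use the same 72 h knockdown libraries as the comparison with Gl2-KD, and are not independent of it. Those over time in Gl2-KD share the 72 h control libraries with it in the same way, also for *Col6a1* and *Sned1*. *Lamc1* stood at 515, 198 and 176 CPM at 24 h and 342, 140.4 and 164 at 72 h in Gl2-KD, lower in each experiment with overlap. The log2 fold change was -0.40 (SE 0.13, adjusted p = 0.161) there and -0.48 (SE 0.13, adjusted p = 0.123) in Srrm2-KD. *Lamb3* had 1.77, 1.30 and 4.62 CPM and then 2.22, 2.57 and 9.48 in Gl2-KD, higher in each experiment. Its log2 fold changes were 0.81 (SE 0.26, adjusted p = 0.15) and 0.67 (SE 0.26, adjusted p = 0.235). In these comparisons 27 and 33 of the 40 members were below 0, against 47.7% and 49.9% of all genes, with medians of -0.09 and -0.31. Of the 1307 long and GC-rich genes, 46.4% were below 0 in Gl2-KD and 60.6% in Srrm2-KD, with medians of 0.03 and -0.07. An unadjusted p below 0.05 was reached in Gl2-KD by 5 members with higher and 4 with lower values, against 9.59% and 7.21% of all genes. In Srrm2-KD it was reached by 2 with higher and 12 with lower values, against 7.72% and 8.54%. *Col18a1*, *Sparc*, *Col5a1*, *Plod1*, *Lamb2* and *Itgb1* had their 3 Srrm2-KD libraries of 72 h below those of 24 h, which 3.9% of all genes showed. With 1 library left out the members' medians ran from -0.28 to -0.02 and from -0.44 to -0.18, the ends being without the 72 h control of experiment 3 and of experiment 1 in Gl2-KD, and without the 24 h knockdown of experiment 3 and of experiment 1 in Srrm2-KD. The Gl2-KD median was -0.03 without the 24 h control of experiment 2 and -0.16 without that of experiment 3. *Krt7*, a trophectoderm marker, was called higher with time in both (1.83 and 1.77 on the log2 scale, adjusted p = 0.0144 and 0.0333), and that list summed to 6.20 to 15.4 CPM over the 24 h libraries and 9.37 to 29.5 over those at 72 h. *Krt7* itself went from 5.64 to 18.6 CPM in the experiment 3 controls, 3 of the 8 markers had values below 0 under each siRNA, and no other marker of the list had an unadjusted p below 0.05. The part of *Krt7* in the members' changes was not tested.

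**Figure D5:**
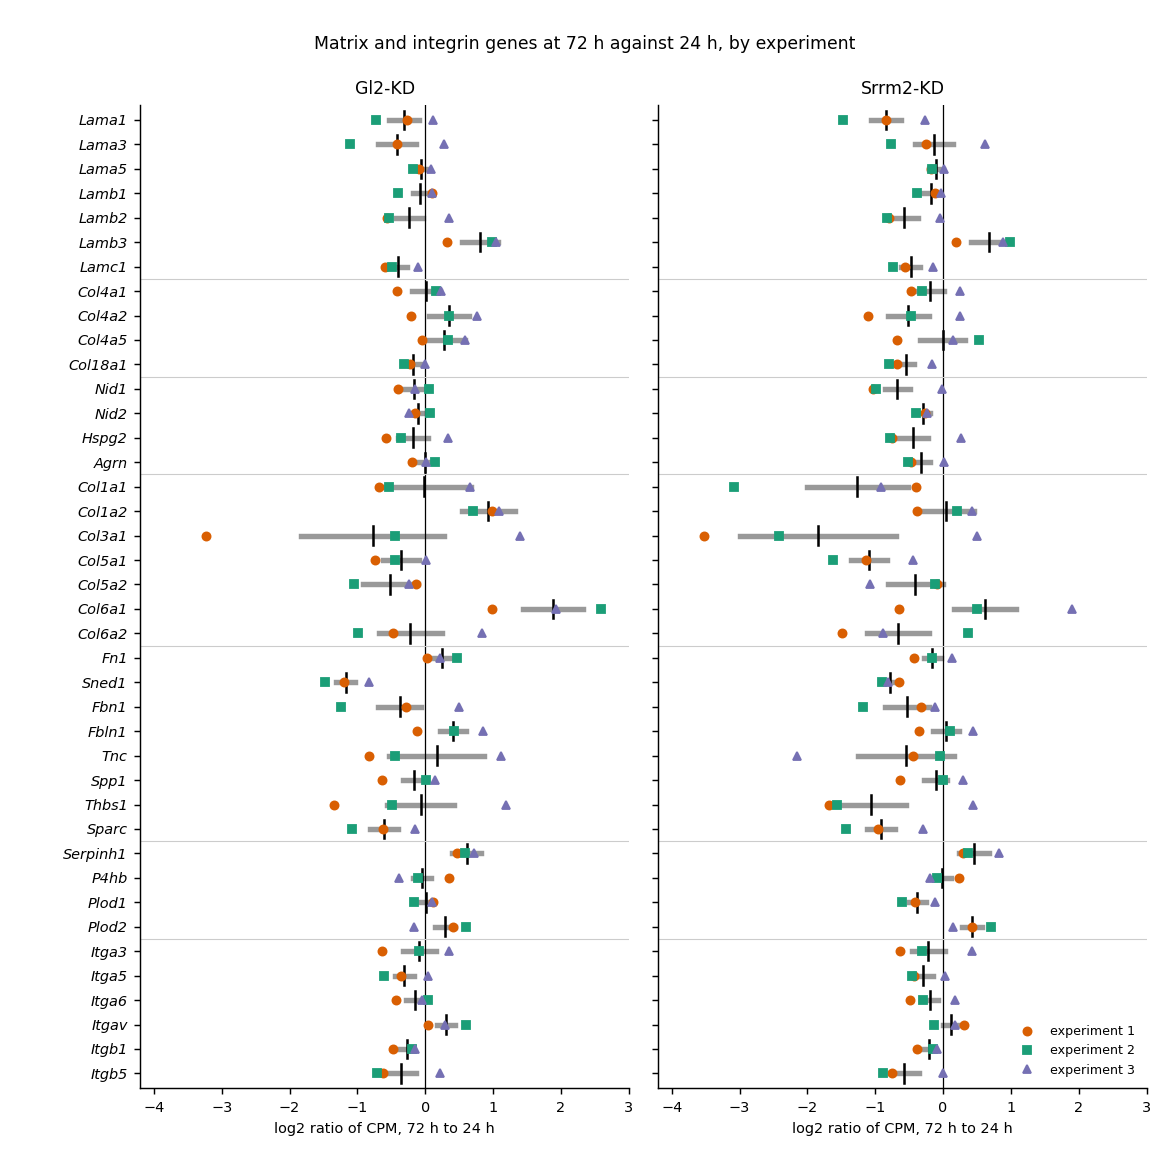
Log2 ratio of CPM at 72 h to 24 h for the 40 tested members, in Gl2-KD (left) and Srrm2-KD (right), with points for the 3 experiments (0.01 CPM added), a black tick for the fitted value and a grey bar for its SE. *Sned1* lies left of 0 in both panels in every experiment (-1.17 and -0.79 fitted), and *Col6a1* right of 0 in Gl2-KD (1.88).

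The matrix genes outside the list were followed through 7 lists of 129 genes in all, of which 120 passed the filter. For the knockdown at 24 h and 72 h edgeR called none. At 72 h DESeq2 called 8 of the 120 (2.79% of all genes) and the block for each experiment at each time 11 (3.73%). The 72 h libraries fitted alone called 3 (1.78%) and that fit with GC content and length 1 (1.06%), while at 24 h no fit called any. At 72 h, 22 of the 120 had an unadjusted p below 0.05 with lower and 8 with higher values, against 7.86% and 5.01% of all genes. Their median was -0.16. The 1307 long and GC-rich genes described above also had -0.16, but that class was set by the members and not matched to these lists. Of 20 focal adhesion proteins inside the cell, 8 were lower at that level and none higher, and the leading one was *Ptk2* (focal adhesion kinase, -0.38, SE 0.09, adjusted p = 0.153). Of 16 other integrin subunits 2 were lower and 3 higher. *Itgb3*, the β3 partner of αv, had 2.08, 2.25 and 1.99 CPM against 1.23, 0.98 and 0.96 at 72 h, without overlap (log2 fold change -1.005, SE 0.22, adjusted p = 0.144). *Itgal*, the αL subunit of leukocytes, had 0.89 (adjusted p = 0.154).

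In the other lists the smallest p values at 72 h belonged to single genes. *Colgalt1*, which glycosylates collagen, had -0.45 (SE 0.10, adjusted p = 0.144), and 5 of 17 folding genes had a lower value at an unadjusted p below 0.05. *Thbs2* (thrombospondin 2) had 1.10 (SE 0.26, adjusted p = 0.153), the opposite sign of *Thbs1*. Of 14 other basement membrane genes, 10 had a value below 0, with a median of -0.36, and *Npnt* (nephronectin, an integrin ligand) had -0.49 (SE 0.24, adjusted p = 0.425). Matrix receptors other than integrins and proteases with their inhibitors had 1 lower and 1 higher of 7, and 2 lower and 1 higher of 22, at that level, near the shares over all genes. The smallest p values there belonged to *Ddr1* (-0.28, adjusted p = 0.292) and *Timp1* (-0.30, adjusted p = 0.342). With time, *Itga9*, a receptor for tenascin, fell in Gl2-KD by a log2 fold change of -1.21 (SE 0.18, adjusted p = 0.0144) and in Srrm2-KD by -1.35 (SE 0.18, adjusted p = 0.0317). *Serpine2*, a protease inhibitor, rose in Gl2-KD from 9.92, 16.7 and 19.4 CPM to 28.2, 30.0 and 34.5 (1.05, SE 0.18, adjusted p = 0.0259), and had 0.86 (adjusted p = 0.0695) in Srrm2-KD. Neither gene was called in Gl2-KD without the 24 h control of experiment 1 or 2 or the 72 h control of experiment 2, and 1 of them was called without the 72 h control of experiment 3. In Srrm2-KD no gene of these lists was called without the 24 h control of experiment 1 or 3, the 24 h knockdown of experiment 1 or 2, or the 72 h knockdown of experiment 2. Without the block none was called with time under either siRNA.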

How the data were processed

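PolyA+ RNA was sequenced by the authors as stranded 100-bp paired-end reads and pseudo-aligned with Kallisto 0.46.1 to the GENCODE M24 transcriptome. The authors deposited 1 estimated count per gene and library, not normalized, of which 33.9% to 43.1% per library were not whole numbers. Symbols, positions, lengths and GC content were taken here from GENCODE M21 (GRCm38), where 42156 of 42450 identifiers matched.

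Estimated counts were rounded and fitted in R 4.3.3 with edgeR 4.0.16 (filterByExpr with a minimum count of 10 and total of 15, TMM, 1 fit of 12 libraries with a term for each of 4 groups and the experiment as a block, glmQLFit with legacy=TRUE, glmQLFTest), and p was adjusted by Benjamini-Hochberg over 19410 genes. The authors' covariate, the RNA processing day, is not given per library in the sources used here. Libraries of the same experiment number were paired: over genes, deviations from group means correlated at 0.248 to 0.711 in 18 same-number pairs and -0.596 to 0.216 in 36 others. Such deviations cancel within each group of libraries, so these ranges are not independent of each other. Per the study's methods the replicates, here called experiments 1 to 3 after the numbers in the labels, were independent biological replicates of the same cell line. CPM were estimated counts per 1000000 of the TMM-scaled library total (factors 0.935 to 1.08).

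The members and lists were chosen with earlier results of these data known. Values per library are given for members called in any of the 5 comparisons, the 5 with the smallest p in each and the 6 highest per kilobase. Members that failed the filter are named with their counts. Of each further list, called genes or else the 2 with the smallest p were eligible. Other members and *Acta2*, *Krt7* and the markers were chosen after their values were seen. The result of 1 gene of the further lists is not reported here. Counts simulated for the 72 h knockdown, with no difference between experiments put in, were also fitted. They do not test the block or the other comparisons. DESeq2 1.42.0, limma 3.58.1 (voom) and other scalings, filters and blocks were tried as alternatives, and libraries were left out in turn.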

Additional observations from a re-analysis of the deposited data

How the results depend on the processing

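At 72 h the count of members called in Srrm2-KD against Gl2-KD was 0 in the fit as reported and 8 with DESeq2 (2.79% of all genes). It was 12 with a replicate block for each experiment and time point (3.73%) and 8 with the time point fitted alone (1.78%). That fit with offsets for GC content and length gave 4 (1.06%). At 24 h, and for the difference between the times, the count was 0 in every fit. For 72 h against 24 h in Gl2-KD the count was 1 as reported (1.45% of all genes) and 4 with DESeq2 (6.89%). It was 2 with limma-voom (2.48%), legacy=FALSE (3.21%), no filter (1.44%), at least 10 counts in every library (3.2%) or GC and length offsets (3.11%). It was 0 with no replicate block or with experiment 1 against the others as the block (0.0% for each). When a library or an experiment was omitted it was 0 to 2. In Srrm2-KD the count was 1 as reported (0.551% of all genes), 7 with DESeq2 (5.47%) and 3 with no filter (0.727%). It was 2 with limma-voom (1.33%), legacy=FALSE (1.44%) or GC and length offsets (1.05%). With no replicate block, with the siRNA fitted alone or with experiment 1 against the others it was 0 (0.0% for each). The range was 0 to 3 when a library or an experiment was omitted. No result past the threshold changed its direction. The cause of these changes was not tested. The replicate block of experiment 1 against the others and the offsets were chosen after seeing the data. *Lox*, at 0 to 14.0 counts per library, failed the filter on low counts and had no test in the fit as reported.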
